A study of Mus musculus with 4 samples.

Results

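The clustered protocadherin promoters in the table comprised 24 of 26354 promoters. They were the rows whose gene symbol begins with Pcdha, Pcdhb or Pcdhg, with or without a further letter A, B or C, followed by a number, a rule that uses symbols only. The alpha cluster was represented by 1 promoter, Pcdhac1, the gamma cluster by 1 promoter, Pcdhga11, and the beta cluster by 22 promoters, Pcdhb1 to Pcdhb22. The other alpha and gamma promoters were not analysed here, so alpha and gamma each rest on a single promoter. Aortas came from male mice of the strain C57Bl/6J, and their medial layer, neither cultured nor treated, was fixed in formaldehyde for H3K9me2 ChIP-seq. The age and number of animals per library are not given in the sources used here. The libraries came from 2 independent experiments, v102 and v134, and each gave a pair of libraries, 1 from H3K9me2 ChIP and 1 from its input, chromatin sequenced without immunoprecipitation. Adventitial and endothelial layers were removed by hand, so other cells of the vessel wall may have been carried along.

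Clustered protocadherins are cell surface adhesion proteins best known from neurons, in which single cells use different combinations of them. The genes lie in 3 neighbouring arrays. In the alpha and gamma arrays, each variable exon has its own promoter and is spliced to exons that the whole array shares, whereas each beta gene is complete in itself. In neurons most of these promoters are chosen at random, but the C-type promoters at the end of the alpha and gamma arrays, of which Pcdhac1 is an example, are used more uniformly. H3K9me2 is a mark of repressed chromatin laid down mainly by the methyltransferases G9a and GLP.

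The counts are reads within 1 kb either side of a start site. The 24 promoters together held 169 ChIP reads in v102 and 333 in v134, against 489 and 898 input reads. Over the whole table the totals were 162233 and 229605 ChIP reads and 619100 and 1084349 input reads, which cover the listed promoters only and so are smaller than the libraries. The median protocadherin promoter had 5.5 and 12 ChIP reads in v102 and v134 and 20 and 37 input reads. A ratio at 1 promoter therefore carries a wide counting error, which is given as a 95% Wilson interval. Such intervals describe counting error alone, because reads that carry no molecular identifier need not stem from separate molecules. No member had 0 reads in a library. The windows did not overlap those of other listed promoters, with at least 4.25 kb between start sites.

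As a group, the clustered protocadherin promoters carried more H3K9me2 than the average promoter, whereas protocadherins outside the clusters carried less. The pooled ratio, all ChIP reads of the 24 promoters over all their input reads, was 0.362 (95% Wilson interval 0.327 to 0.401), which is 1.57 times the ratio of all promoters together. Relative to all promoters, this pooled ratio was 1.32 in experiment v102 and 1.75 in experiment v134. On the log2 scale the mean was 0.60 ± 0.29 (SD, n = 2). The baseline of all promoters includes mitochondrial windows. Promoters outside the mitochondrial genome were together at 1.16 times this baseline in v102 and 1.08 times in v134. For the beta promoters, which make up most of the group, the pooled log2 value of 0.55 turned to -0.30 when the trend with GC content was removed. The 12 protocadherins that stand alone in the genome had a pooled ratio of 0.115 (interval 0.0901 to 0.147). The clustered genes were thus 2.96-fold higher in v102 (95% counting interval 1.94 to 4.51) and 3.26-fold higher in v134 (2.31 to 4.59). The windows of the clustered genes were poorer in GC, at a median of 42.3% compared with 53.7%, and in CpG, at an observed/expected ratio of 0.344 compared with 0.656, and the part of this in the difference was not tested. With 2 experiments, an exact permutation test of a pooled value cannot go below p = 0.5, so the value in each experiment and the counting interval are given in its place.

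By cluster, the ratio was highest for alpha, intermediate for gamma and lowest for beta, but this sets single alpha and gamma promoters against a pool of 22 beta promoters, of which Pcdhb8 (0.917) and Pcdhb1 (0.857) had higher ratios than Pcdhac1. The ratio was 0.689 at Pcdhac1 (interval 0.466 to 1.02), 0.538 at Pcdhga11 (0.358 to 0.810) and 0.337 over the 22 beta promoters (0.302 to 0.376). Relative to all promoters, these are 2.99, 2.34 and 1.47. Over both experiments together, the Pcdhac1 ratio was 2.04 times that of the beta cluster (counting interval 1.36 to 3.07). The experiments differed in this comparison: in v134 the ratio at Pcdhac1 was 2.70 times that of the beta cluster (1.63 to 4.47), whereas in v102 it was 1.22 times (0.589 to 2.51), which is within counting error. The Pcdhga11 ratio was 1.60 times that of the beta cluster (1.04 to 2.44), with 1.38 in v102 (0.678 to 2.80) and 1.74 in v134 (1.02 to 2.97). Pcdhga11 and Pcdhac1 were not distinguishable, at 0.782 times (0.443 to 1.38), and the sign of their difference was not the same in the 2 experiments.

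**Figure D1:**
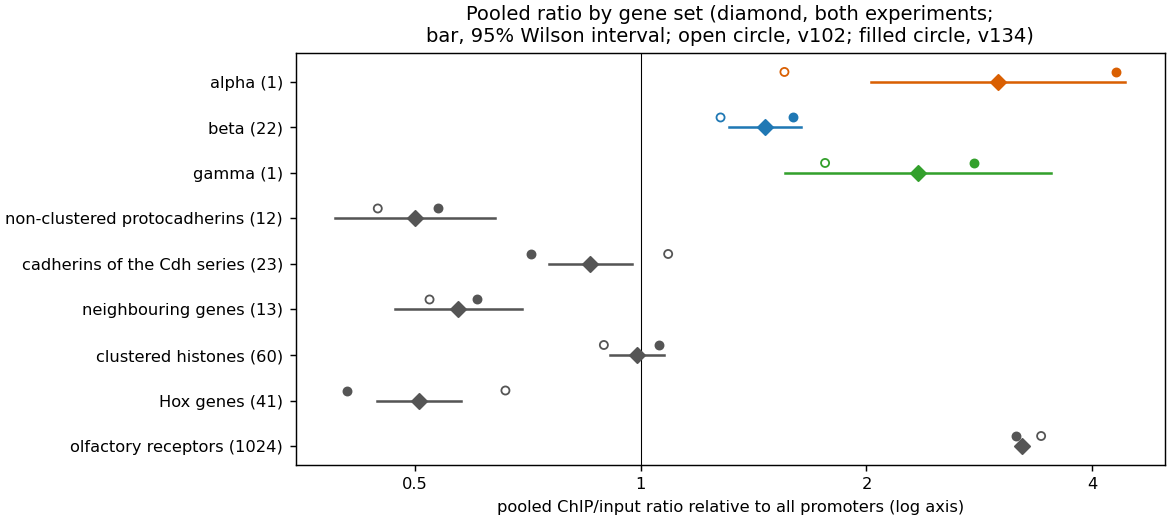
Pooled ChIP/input ratio relative to all promoters (log axis, 1 being the ratio of all promoters together), by gene set, with the number of promoters in brackets; diamonds and bars give both experiments with the 95% Wilson interval, open circles experiment v102 and filled circles experiment v134. Alpha (2.99), beta (1.47) and gamma (2.34) lie above 1 in both experiments, and the non-clustered protocadherins lie below 1 in both. On this scale all promoters outside the mitochondrial genome, which are not drawn, are at 1.16 in v102 and 1.08 in v134.

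To test single promoters, ChIP reads were set against input reads by edgeR's quasi-likelihood test over all 26354 promoters, with Benjamini-Hochberg adjustment at 0.05. With 2 libraries in each arm, the p-values rest on a spread between libraries that edgeR estimates with information shared across all promoters. They therefore need not follow the spread at a single promoter. A promoter called above or below input has more or fewer ChIP reads, relative to input, than expected from the scaling of the libraries. Of the 24 members, 6 were above input, compared with 18.6% of all promoters. None of the 24 was below input, compared with 17.0% of all promoters. No member below input was found at an unadjusted p under 0.05 by edgeR or DESeq2 either. Within the beta cluster 4 of 22 promoters (18.2%) were above input, a share near that of all promoters. An edgeR log2 fold change above 0 was found at 20 of the 24 members, compared with 41.3% of all promoters, and the median fold change was 0.65 on the log2 scale, compared with -0.35 over all promoters. The share of all promoters below input was 8.30% with a replicate block. By the main test it was 5.33% between 40.2% and 44.1% GC, where most members lie. The lack of such calls among 24 promoters is near these shares. DESeq2 called 29 of all promoters below input but left 17372 adjusted p-values undefined, so no share by it is compared here. Single promoters at this depth pass the test only when the fold change is large.

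Pcdhac1 (ENSMUSG00000103255.1) occupies positions 37090013 to 37187657 of chromosome 18 (GRCm38, plus strand). It is the only C-type promoter analysed here. It had 11 and 31 ChIP reads in experiments v102 and v134 against 27 and 34 input reads. Its log2 ratio, taken between ChIP and input after adding 1 read and scaling to the library totals, was 0.71 in v102 and 2.11 in v134, so that its rank moved from percentile 72.0 of all promoters to percentile 96.9. Pcdhac1 passed the edgeR test, with a log2 fold change of 1.66 (standard error 0.39, adjusted p = 0.000185). The high value thus came mainly from experiment v134, in which ChIP reads nearly equalled input reads. The SD of the log2 ratio between the 2 experiments was 0.99 at Pcdhac1. At Pcdhb8 it was 0.06, with a larger edgeR standard error of 0.44. The adjusted p at Pcdhac1 is therefore no measure of the disagreement between its experiments. The table lists symbols without positions, and a match of the symbol to the annotation does not establish which of the alpha start sites was counted.

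Pcdhga11 (ENSMUSG00000102742.1; chromosome 18, 37755731 to 37841873, plus strand) belongs to the gamma-A genes, which are among the promoters chosen at random in neurons. Its ChIP reads numbered 12 in v102 and 23 in v134, and its input reads 26 and 39. Its log2 ratio was 0.88 in v102 and 1.50 in v134, a mean of 1.19 ± 0.44 (SD, n = 2). It ranked at percentile 76.1 in v102 and 89.7 in v134, hence in the top quartile of both. The edgeR log2 fold change was 1.34 (standard error 0.40, adjusted p = 0.00451). By DESeq2 the adjusted p was 0.0770, so the call depends on the test. As for Pcdhac1, the gene shares its last exons with its neighbours, and which gamma start site was counted is not known from the symbol, so its position and base composition are those of the annotated gene.

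The beta promoters were uneven, with Pcdhb8 and Pcdhb1 far above the other 20. Pcdhb8 (ENSMUSG00000045876.4; chromosome 18, 37355121 to 37358604, plus strand) had the highest ratio of the family. It held 16 ChIP reads in v102 and 17 in v134, against 16 and 20 input reads. ChIP and input reads were thus nearly equal in each experiment, although the whole table held several input reads for each ChIP read. Its summed input of 36 reads was the lowest of the family. With 16 input reads in v102, Pcdhb8 was not tested under a minimum of 20 reads in each input. The deposited ratio was 0.917 (interval 0.574 to 1.46), the mean log2 ratio was 1.97 ± 0.06 (SD, n = 2), and Pcdhb8 ranked at percentile 93.4 in v102 and 96.1 in v134. Its edgeR log2 fold change was 2.12 (standard error 0.44, adjusted p = 2.39e-05).

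Pcdhb1 (ENSMUSG00000051663.4; chromosome 18, 37264938 to 37267525, plus strand) is the outermost beta gene on the side of the alpha cluster and stands 29.9 kb from its nearest listed neighbour, Pcdhb2. It held 19 and 23 ChIP reads against 24 and 25 input reads. Its ratio was 0.857 (interval 0.569 to 1.29) and its mean log2 ratio 1.87 ± 0.36 (SD, n = 2), at percentile 89.1 in v102 and 97.1 in v134. Like Pcdhb8, it was high in each experiment. The edgeR log2 fold change was 2.00 (standard error 0.40, adjusted p = 8.92e-06).

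Pcdhb6 and Pcdhb22 were also above input, by a smaller margin. Pcdhb6 had 9 and 21 ChIP reads against 18 and 52 input reads, and its log2 ratio was nearly the same in the 2 experiments, at 1.01 and 0.97. Its edgeR log2 fold change was 1.06 (standard error 0.41, adjusted p = 0.0312). Pcdhb22, the outermost beta gene on the side of the gamma cluster, had 15 ChIP reads in each experiment against 21 and 47 input reads. Its log2 ratio was 1.47 in v102 and 0.65 in v134, and its edgeR log2 fold change was 1.11 (standard error 0.41, adjusted p = 0.0251). When libraries were scaled by their totals and not by TMM, the edgeR adjusted p was 0.0715 at Pcdhb6 and 0.0580 at Pcdhb22, and by DESeq2 it was 0.180 and 0.134, so both calls depend on the test. Just outside it were Pcdhb19, with 9 and 15 ChIP reads, 26 and 36 input reads and an edgeR adjusted p of 0.104, and Pcdhb11, with 5 and 12 ChIP reads, 15 and 25 input reads and an edgeR adjusted p of 0.115.

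Pcdhb12 had the lowest ratio of the family. It held 1 and 4 ChIP reads against 16 and 30 input reads, a ratio of 0.109 (interval 0.0445 to 0.265). Its log2 ratio was below 0 in both experiments (-1.16 and -0.39), the only beta promoter for which this held. Its interval nonetheless includes the median ratio of all promoters, 0.162, and its edgeR log2 fold change of -0.93 (standard error 0.73, adjusted p = 0.312) did not pass the test. Pcdhb5, which lies between Pcdhb4 and Pcdhb6, was the other promoter below the median rank by the mean log2 ratio. It had 1 ChIP read in v102 and 10 in v134 against 18 and 36 input reads. Its ratio over both experiments, 0.204, was above the median of 0.162, and its edgeR log2 fold change was -0.036. Its 2 experiments stood far apart, with log2 ratios of -1.32 and 0.49.

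The remaining beta promoters had deposited ratios between 0.203 and 0.353. Pcdhb20 and Pcdhb21 were at the low end, each at 0.203, and Pcdhb18 at the high end. ChIP reads in these promoters ran up to 9 in v102 and 24 in v134, and none passed the test. In all, 20 of the 22 beta promoters ranked above the median promoter by the mean log2 ratio, and 15 of 22 did so in each experiment, compared with 38.0% of all promoters. Only 4 beta promoters, Pcdhb1, Pcdhb6, Pcdhb8 and Pcdhb22, were in the top quartile of both experiments, a share of 18.2% compared with 17.7% of all promoters.

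**Figure D2:**
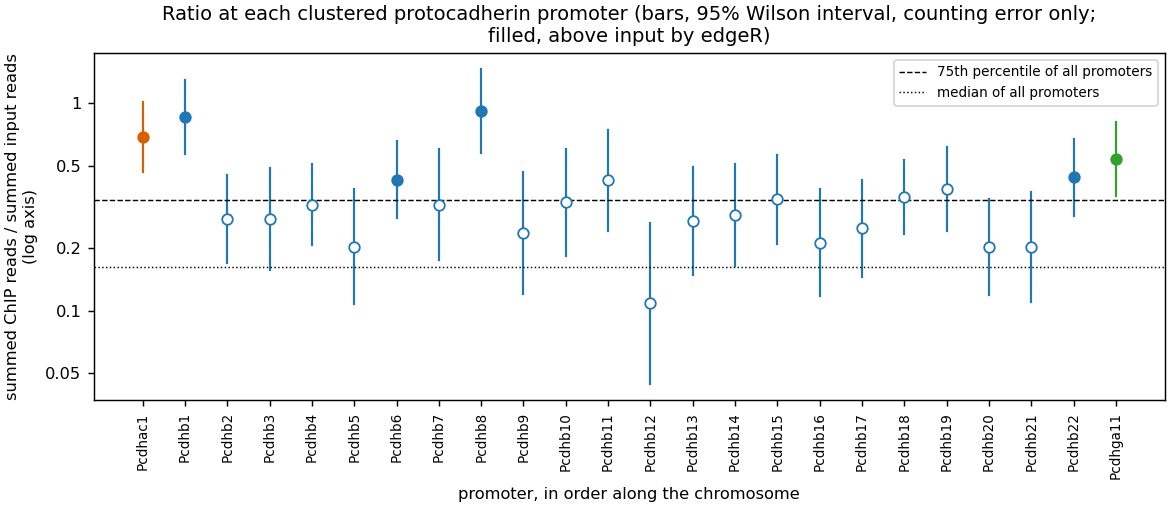
ChIP/input ratio over both experiments (log axis) at the 24 promoters in order along the chromosome, with 95% Wilson intervals for counting error; filled points are above input by edgeR, and the lines mark the 75th percentile (0.343) and the median (0.162) of all promoters. Pcdhac1, Pcdhb1, Pcdhb8 and Pcdhga11 stand above the 75th percentile with their whole intervals, while the intervals of most other beta promoters cross it.

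The spread among the beta promoters was larger than counting error. The chi-square of ChIP against input reads over the 22 beta promoters, divided by its degrees of freedom, was 2.04 in v102 and 1.87 in v134, where counting error alone gives about 1. Without Pcdhb1 and Pcdhb8 it was 1.23 and 0.890, a fall that is in part due to their choice as the highest values. The pooled ratio of the other 20 beta promoters was 0.298 (interval 0.264 to 0.335), or 1.29 times that of all promoters, with 1.07 in v102 and 1.45 in v134, values that leaving out the highest promoters had to lower. All 22 beta promoters were at 1.28 times the ratio of all promoters in v102 (interval 1.06 to 1.54) and 1.60 times in v134 (1.39 to 1.83). Promoters outside the mitochondrial genome were at 1.16 times that ratio in v102, which lies within the beta interval, and 1.08 times in v134. In v102 the other 20 beta promoters, at 1.07, were below those promoters. Between v102 and v134, the log2 ratios of the 22 beta promoters correlated with Spearman rho 0.240 and Pearson r 0.516. This is a description of 22 promoters measured in the same libraries, with few reads each.

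The position along the array was not closely related to the ratio. Across the 22 beta promoters the Spearman rho between start position and mean log2 ratio was -0.178, with the highest value at the eighth gene and the second highest at the first. The ratios of the other genes listed in the neighbourhood on chromosome 18 differed by their place inside or outside the arrays, and so did their base composition. Between the start of the alpha and the end of the gamma cluster in the annotation (36930184 to 37841873), 4 further promoters were listed, and pooled they had a ratio of 0.478 (interval 0.394 to 0.580). Taf7, which encodes a subunit of the general transcription factor TFIID, lies between the beta and gamma arrays. It had 12 and 23 ChIP reads against 19 and 42 input reads and was above input by edgeR (log2 fold change 1.46, standard error 0.40, adjusted p = 0.00195). The long non-coding RNA gene 3222401L13Rik, just before the gamma array, had 39 and 36 ChIP reads against 43 and 82 input reads and was also above input (edgeR log2 fold change 1.55, standard error 0.33, adjusted p = 3.19e-05). Slc25a2, which encodes a mitochondrial carrier, had a ratio of 0.291, and Gm10545, antisense to alpha genes, had a ratio of 0.364, and neither passed the test. Hence 2 of these 4 promoters were above input, compared with 18.6% of all promoters.

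Outside the arrays the values were lower. The 14 promoters listed between 426 and 296 kb before the start of Pcdhac1 had a pooled ratio of 0.0800 (interval 0.0634 to 0.101). By edgeR, 7 of them were below input, compared with 17.0% of all promoters. Among the 7 were Hars and Hars2, which encode histidyl-tRNA synthetases. The 12 promoters between 865 and 1323 kb after it had a pooled ratio of 0.0843 (0.0649 to 0.109), and 5 were below input. The histone deacetylase gene Hdac3, the listed promoter next to the gamma array on the far side, had 2 and 0 ChIP reads against 27 and 33 input reads (edgeR log2 fold change -2.61, standard error 0.88, adjusted p = 0.0127). Several of these windows overlap and share reads, as those of Hars and Hars2, Ndufa2 and Ik, and Hdac3 and Rell2 do. With 1 promoter kept from each set of overlapping windows, an alternative added after the values were seen, the pooled ratio was 0.0829 over 11 promoters before the arrays (interval 0.0640 to 0.107), with 5 below input, and 0.0894 over 10 promoters after them (0.0677 to 0.118), with 4 below input. None of the listed promoters on either side was above input, compared with 18.6% of all promoters. The pooled ratios before and after the arrays were thus below that of the promoters within them, although single promoters overlapped: Slc35a4 before (0.207) and Gm10268 after (0.208) were above Pcdhb12, Pcdhb20, Pcdhb21 and Pcdhb5. The stretches between promoters were not measured. GC content of the windows ran from 46.4% to 52.9% before the arrays and from 45.0% to 63.9% after them. At the promoters within the arrays that are not protocadherins it ran from 44.2% to 48.2%. The part of base composition in this difference was not tested.

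**Figure D3:**
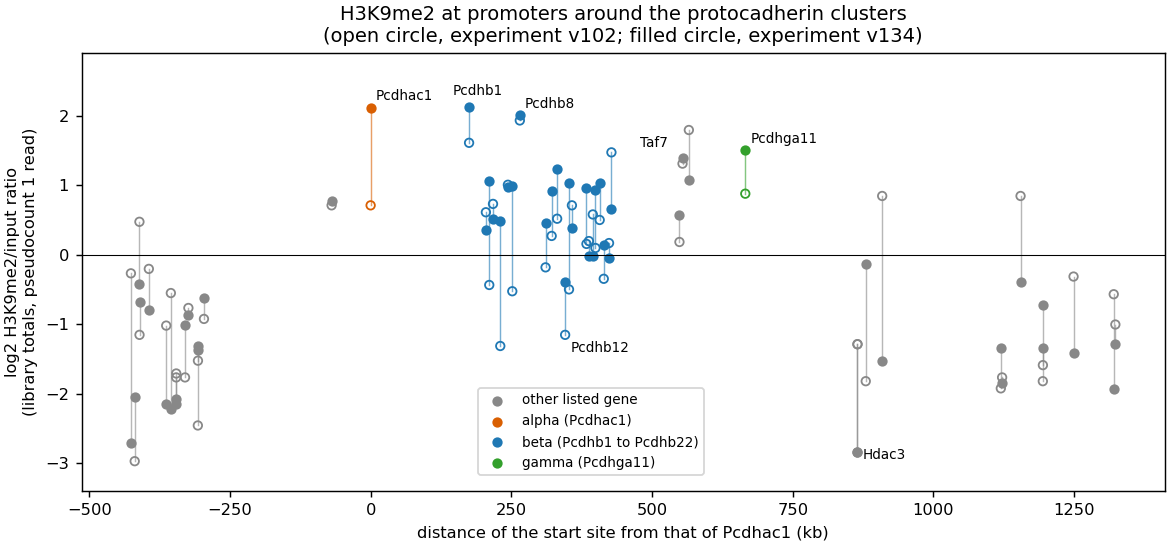
Log2 H3K9me2/input ratio (scaled to library totals, pseudocount of 1 read) of each listed promoter against the distance of its start site from that of Pcdhac1 in kb; open circles are experiment v102, filled circles experiment v134, lines join the 2 values of a promoter, and grey marks genes other than clustered protocadherins. The promoters within the arrays, among them Taf7, lie mostly above 0, and those more than 296 kb before or 865 kb after Pcdhac1 lie mostly below 0.

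Base composition differed between the family and the table, and between the beta genes and the other members. Median GC content was 42.1% in the 2 kb windows of the beta promoters and 50.9% in those of all promoters with a match in the annotation, while Pcdhga11 was at 45.4%, Pcdhb1 at 47.2% and Pcdhac1 at 51.4%. GC-poor windows had higher ratios across the table: the Spearman rho between GC content and the mean log2 ratio was -0.549 over 22299 promoters, which share libraries and are not independent. Between 40.2% and 44.1% GC, where 17 of the 24 members lie, 38.8% of all promoters were above input, compared with 2 of the 17 members, Pcdhb6 and Pcdhb8. Once the GC trend was removed, the median percentile of the beta promoters among promoters matched to the annotation moved from 72.8 to 38.6, and 7 of 22 were above the middle of all promoters. The pooled log2 ratio of the beta cluster relative to all promoters moved from 0.55 to -0.30, so its direction depends on this correction. Pcdhac1, Pcdhb1, Pcdhb8 and Pcdhga11 stayed high, at percentiles 97.0, 96.7, 92.8 and 83.3. The other members above input, Pcdhb6 and Pcdhb22, were then at percentiles 69.7 and 50.9.

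CpG content gave another picture. The ratio of observed to expected CpG dinucleotides had a median of 0.334 in the beta windows, compared with 0.441 over all matched promoters, and was 0.767 at Pcdhga11, higher than at 89.1% of promoters. CpG-rich promoters had low ratios across the table (Spearman rho -0.519 over the same promoters), and among the 2230 promoters with a CpG ratio from 0.687 to 0.776, which include Pcdhga11, the upper quartile of the mean log2 ratio was -0.34, compared with 1.19 at Pcdhga11. Once the CpG trend was removed, which was decided only with the data in view, the median percentile of the beta promoters was 73.6, and 16 of 22 were above the middle. Pcdhb1, Pcdhga11, Pcdhb8 and Pcdhac1 were at percentiles 98.7, 98.3, 97.9 and 97.3. The beta cluster as a whole was therefore above other promoters of like CpG content but not above those of like GC content, whereas these 4 promoters were at percentile 83.3 or higher by either measure. The part of base composition in the ratio of these libraries was not tested.

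**Figure D4:**
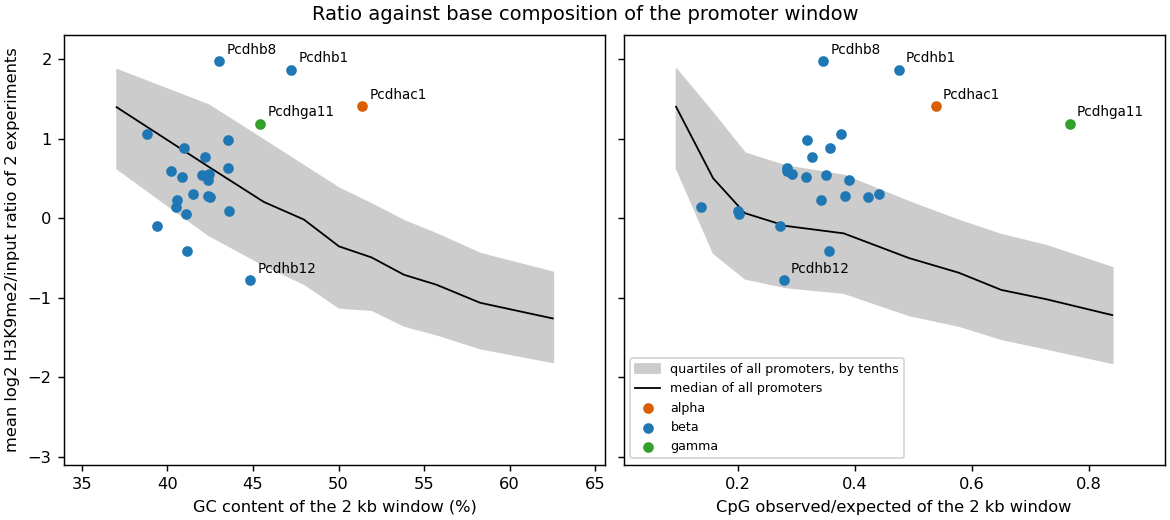
Mean log2 H3K9me2/input ratio of the 2 experiments against GC content (left, %) and the observed/expected CpG ratio (right) of the 2 kb window; the line and grey band give the median and quartiles of all promoters in 10 bins, and the points are the 24 members. Most beta promoters lie at or below the line for GC content and at or above it for CpG content, and Pcdhb8, Pcdhb1, Pcdhac1 and Pcdhga11 lie above the band in both panels.

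**Figure D5:**
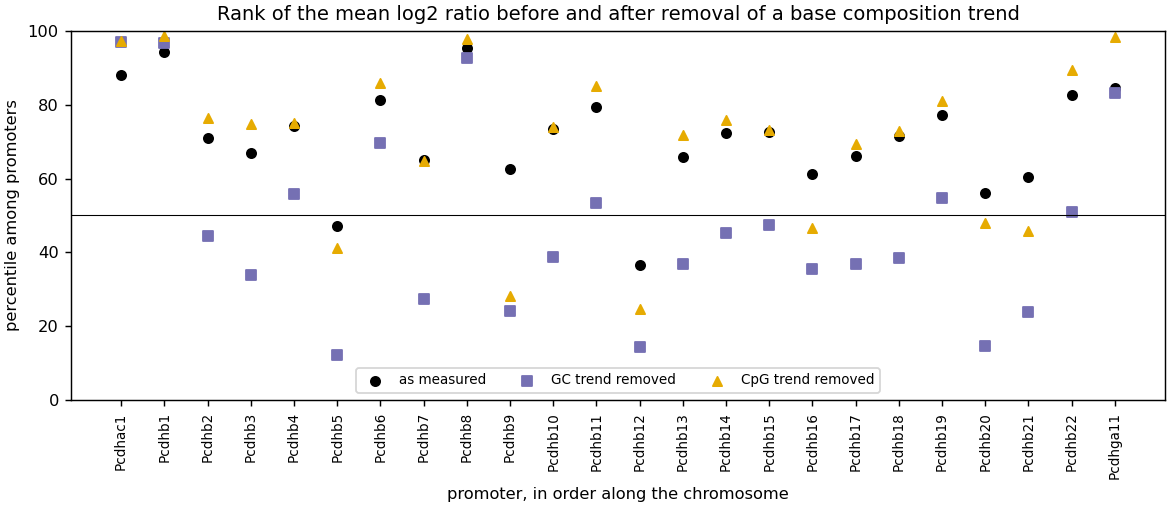
Percentile of the mean log2 ratio among promoters for the 24 members, as measured (circles, among all promoters), after removal of the GC trend (squares) and after removal of the CpG trend (triangles, both among promoters with a match in the annotation). Pcdhac1, Pcdhb1, Pcdhb8 and Pcdhga11 stay at percentile 83.3 or higher in all 3 series, whereas Pcdhb5 and Pcdhb12 lie below 50 in all 3.

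Since the beta genes are close copies of each other, reads of 1 gene may be placed at another. Of the 24 windows, 8 hold 75-base stretches that occur again within 2 Mb around the clusters, all of them in genes between Pcdhb4 and Pcdhb12, and at most 5.60% of the stretches in a window (Pcdhb10). At Pcdhb8 the share was 0.675%, and Pcdhac1, Pcdhb1, Pcdhb22 and Pcdhga11 had none. The median summed input was 60 reads at the members and 57 over all promoters. Most of the 8 windows with repeated stretches were below this. Their summed input was 77 at Pcdhb4, 70 at Pcdhb6, 40 at Pcdhb7 and 36 at Pcdhb8. At Pcdhb9 and Pcdhb10 it was 42, at Pcdhb11 40 and at Pcdhb12 46. Stretches that differ by a few bases were not counted, and their effect on read placement was not tested.

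Among related genes, the non-clustered protocadherins had 4 of 12 promoters (33.3%) below input by edgeR, compared with 17.0% of all promoters. Between 52.9% and 54.7% GC, where their median of 53.7% lies, 22.2% of all promoters were below input. None of the 12 was above, compared with 18.6% of all promoters and 4.91% of those between 52.9% and 54.7% GC. The lack of such calls is near the latter share. By unadjusted edgeR p under 0.05, 0 of 12 were above as well. Those below were Pcdh1, Pcdh7, Pcdh9 and Pcdh12, and Pcdh7 had the lowest rank of the list, with 0 and 1 ChIP reads against 21 and 23 input reads. Pcdh8 had the highest rank, with 9 and 7 ChIP reads against 31 and 18 input reads and an edgeR adjusted p of 0.364. Pcdh1 and Pcdh12 lie on chromosome 18 beyond the gamma array. Among the 23 listed cadherins of the Cdh series, Cdh7 (ratio 0.648) and Cdh9 (ratio 0.794) were above input and Cdh3, Cdh22, Cdh23 and Cdh24 were below, with the lowest rank at Cdh22. These are 8.70% above and 17.4% below, compared with 18.6% and 17.0% of all promoters. Of the genes known to act on protocadherin promoter choice or on the mark, 13 were listed. Of these, 3 (23.1%) were below input, compared with 17.0% of all promoters. They were the cohesin loader Nipbl, the chromatin protein Smchd1 and Ehmt2, which encodes G9a. The median GC content of the 13 windows was 60.8%. Between 60.0% and 78.9% GC, 38.6% of all promoters were below input and 1.84% above. None of the 13 was above input, and the highest rank among them, at percentile 73.2, was that of the cohesin subunit Stag1. Ctcf, the insulator protein that binds many of these promoters, had 2 and 0 ChIP reads against 12 and 23 input reads, which did not pass the test (edgeR adjusted p = 0.126).

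Compared with olfactory receptor promoters, a family of which each olfactory neuron uses a single member, the protocadherins carried less of the mark. The 1024 olfactory receptor promoters had a pooled ratio of 0.743, and the beta cluster was at 0.374 times that ratio in v102 (counting interval 0.310 to 0.451) and 0.504 times in v134 (0.440 to 0.578). The olfactory windows were also poorer in GC, at a median of 36.5%, and 84.2% of them were above input. Clustered histone genes, at 0.988 times the ratio of all promoters, and Hox genes, at 0.507 times, had lower pooled ratios than the beta cluster, a difference that was not tested.

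H3K9me2 is not a measure of expression, so the labelled cell type can be checked only by the mark. Of 8 contractile smooth muscle genes, Myh11, Lmod1 and Myocd were below input and Smtn was above. Among markers of other cells, the endothelial Pecam1 and the fibroblast Pdgfra were below input and the leukocyte genes Ptprc and Itgam were above. Each of these lists also held a gene that ranked the other way without passing the test. These were the endothelial Tek (percentile 76.1), the fibroblast Dpt (76.4) and the leukocyte Cd68 (11.3). Over all promoters 17.0% were below and 18.6% above, and lists of this size show no more than single calls. Pooled over the 8 genes, the ratio relative to all promoters was 0.737. It was 0.776 over 4 endothelial genes, 0.866 over 3 fibroblast genes and 1.89 over 4 leukocyte genes. The contractile value rests largely on Smtn, which held 15 ChIP reads in v102 and 34 in v134 of 82 in all. The median percentiles of these lists were 19.9 for contractile, 37.7 for endothelial, 54.4 for fibroblast and 81.0 for leukocyte genes. The share of other cells in the tissue, and its part in the values above, was not tested.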

How the data were processed

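Reads were trimmed by the authors with Trim Galore 0.4.2 and Cutadapt 1.9.1, aligned to GRCm38 with Bowtie2 2.2.7 and counted with SeqMonk within 1 kb of each start site. The deposited table holds raw counts for 4 libraries, the sums for ChIP and for input, and the ratio of these sums, which the authors did not scale for library size. Each promoter has at least 21 summed input reads. Duplicate handling and annotation release are not given in the sources used here.

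ChIP and input counts were compared by edgeR 4.0.16 (R 4.3.3; quasi-likelihood test, TMM, Benjamini-Hochberg over 26354 promoters, adjusted p below 0.05), checked on simulated counts. The standard error is the log2 fold change divided by the square root of F. Log2 ratios used a pseudocount of 1 read and were ranked as percentiles. Intervals for ratios are 95% Wilson intervals, and those for the difference of pooled ratios use the normal approximation to the log ratio. The labels tie each input to its ChIP by experiment, which pairs the libraries. The differences between experiments in ChIP and in input correlated at 0.0933 across promoters. Positions and base composition came from GENCODE M21 (GRCm38), in which 22329 symbols (84.7%) matched 1 gene. GC and CpG trends were removed by lowess (fraction 0.3). The members and lists were chosen with earlier results of these data known. Named beta promoters were those called by edgeR, the highest and lowest, the outermost, and those next to the threshold; Pcdhb5, Pcdhb18, Pcdhb20 and Pcdhb21, and 3222401L13Rik and Gm10545, were named after their values were seen. Genes named from other lists were those called, the highest and lowest, or chosen after their values were seen (Ctcf). Alternatives were library totals, DESeq2 1.42.0, a replicate block, at least 20 reads in each input, other pseudocounts, no mitochondrial promoters, and 1 experiment at a time. Tables and plots were made in Python 3.11.15 with scipy 1.17.1 and statsmodels 0.14.6.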

Additional observations from a re-analysis of the deposited data

How the results depend on the processing

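The number of protocadherin promoters above input is given with the share of all promoters tested in brackets. It was 6 with a replicate block that pairs each ChIP with its input (15.8%) and 6 without mitochondrial promoters (18.9%). With library totals it was 4 of 24 (16.3%), near the share of all promoters. Under a minimum of 20 reads in each input it was 6 of 12 tested (17.5%). By DESeq2 it was 3, with the adjusted p undefined at 10 of the 24 members and at 17372 of all 26354 promoters. The block changed no call. Pcdhac1 and Pcdhb1 were called in each of these settings, Pcdhb8 in each in which it was tested, and Pcdhb18 and Pcdhb19 only with at least 20 reads in each input. No promoter was called below input in any of them. The median over all promoters of the log2 fold change shifted by -0.14 with library totals and by 0.11 under the minimum of 20 input reads. Over all promoters, 4902 were above and 4484 below input, compared with 3026 and 29 by DESeq2, 4173 and 2187 with the block, and 2446 and 1678 of 13993 with at least 20 reads in each input.

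Relative to all promoters, the pooled log2 ratio of the beta cluster, 0.55, was 0.94 under that minimum and -0.30 after GC correction, and its median percentile, 71.4 among all promoters and 72.8 among those matched to the annotation, was then 38.6 among the latter. After CpG correction, the gamma value of 1.23 was 2.08, its percentile 98.3, and its difference from beta 1.64 instead of 0.68. After GC correction, the differences were 2.18 for alpha minus beta (1.03 as measured), 1.12 for gamma minus beta and -1.07 for gamma minus alpha. Gamma minus alpha, -0.35, was 0.094 after CpG correction and ran from -0.63 to 0.18 when either replicate was left out, so its sign is not settled. The cause was not tested. Other pseudocounts and the mean over promoters kept each direction. Scaled to promoters outside the mitochondrial genome, the pooled log2 ratios of alpha, beta and gamma were 1.43, 0.40 and 1.08. The edgeR test was not run without a replicate, since 1 ChIP and 1 input library give no residual degrees of freedom. Depth limits single promoters, with 1 to 31 ChIP reads per library.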
